A study of Mus musculus with 21 samples.

Results

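The nuclear-encoded subunits of the mitochondrial respiratory chain are the proteins of complexes I to V that are made from nuclear genes and imported into mitochondria. Members were taken by gene symbol from the count table: the Nduf genes without the assembly factors, Ndufa4l2 and pseudogenes, the Sdha to Sdhd genes, Cyc1 and the Uqcr genes, the Cox genes numbered 4 to 8, and the Atp5 genes. The rule gave 85 of 46517 genes, of which 36 belong to complex I, 4 to complex II, 9 to complex III, 19 to complex IV and 16 to complex V. Ndufa4, named for complex I, is counted with complex IV, where the protein is found. Atp5s carries the prefix but encodes a factor outside the enzyme, so it is given apart from the 16 genes of complex V.

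Complexes I to IV pass electrons from NADH and succinate to oxygen and pump protons across the inner mitochondrial membrane at complexes I, III and IV. Complex V lets the protons flow back and makes ATP, and the beating ventricle depends on this supply throughout life. Complexes I, III, IV and V also hold subunits encoded in mitochondrial DNA, and several subunits of complexes IV and V come in variants made by separate genes, some of them typical of heart and muscle.

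RNA was sequenced from hearts of C57BL/6J mice aged 10 to 14 months, from 4 control (Notch3+/+) mice and 3 Notch3-/- mice. The Notch3-/- mice carry lacZ inserted in the Notch3 locus. Frozen left ventricle is named by the paper for qPCR, while its description of the sequencing names hearts only. Each mouse gave 3 technical libraries, 21 in all, and the sex of the mice is not given. The comparison of genotypes asks how the heart transcriptome of these adult mice differs when Notch3, a receptor of mural cells, is lost. Library totals ran from 464390 to 2134368 in control mice (median 1196276, n = 12) and from 979804 to 2427783 for the Notch3-/- group (median 1583662, n = 9). Summed over its 3 libraries, the total of a mouse was 3091461, 4638786, 4208205 and 3046326 for control mice 1 to 4 and 3828763, 5167869 and 5086740 for Notch3-/- mice 1 to 3.

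The label of each mouse was first checked on the targeted gene. Notch3 had 174, 200, 245 and 185 counts in the controls, against 22, 36 and 25 counts in the Notch3-/- mice, a log2 fold change of -3.16 (SE 0.23, adjusted p = 0.00173 in edgeR, lower in 3 of 3 Notch3-/- mice). The groups did not overlap, and every mouse matched its label. For the tissue, the 20 genes of the ventricular sarcomere list summed to 43102, 32404, 37849 and 42168 CPM (counts relative to the library total, scaled for the composition of each library) in the controls, against 40991, 28022 and 32149 CPM in Notch3-/- mice. The 8 genes of an atrial list summed to 131 ± 54.3 CPM (SD, n = 4) and 204 ± 139 CPM (SD, n = 3), with Nppa the most abundant per kilobase. Stard10 of this list made up 59.0 and 124 CPM of the sums of 133 and 364 CPM in Notch3-/- mice 1 and 2, against 4.14 CPM in Notch3-/- mouse 3 and 6.62 ± 1.52 CPM in the controls (SD, n = 4). Bmp10, which marks the right atrium, had 0 counts in each control mouse and in Notch3-/- mouse 1, and 9 and 7 counts in Notch3-/- mice 2 and 3.

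Notch3-/- mice 1 and 2 stood apart from the other mice in genes of the liver. The 20 genes of a hepatocyte list summed to 61.9, 172, 25.5 and 37.2 CPM in the controls, against 6959, 11777 and 171 CPM in Notch3-/- mice 1, 2 and 3. Alb, the most abundant of them per kilobase, was at 22.3, 80.7, 2.34 and 10.6 CPM in the controls, against 1675, 1791 and 66.6 CPM in Notch3-/- mice. All 18 tested genes of the list were higher at an unadjusted p under 0.05. In the reported edgeR fit 0 were called after adjustment, while DESeq2, and edgeR without Notch3-/- mouse 3, called all 20 genes of the list. On all mice, edgeR called 17 of 18 with libraries scaled to the sarcomere list, and all 20 with every gene that had a count. The part of these transcripts in the values that follow was not tested, and the genotype results are also given without these mice, an alternative added after the values had been seen.

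The respiratory chain genes were among the abundant transcripts of these hearts. In control mice the median member stood at 199 CPM per kilobase of exon, against 6.30 over all tested genes. The median was 192 for complex I, 334 for complex II, 297 for complex III, 202 for complex IV and 145 for complex V, on the same scale. Of the 85 members, 82 had at least 10 counts in every mouse and 83 passed the filter on low counts. Cox7b2, the variant of Cox7b known from testis, had 7, 1, 0 and 2 counts in the controls, against 3, 0 and 0 in Notch3-/- mice. Cox8c, a further variant known from testis, had 0 counts in all 21 libraries.

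Within the complexes the levels spread widely. In complex I, Ndufb9, an accessory subunit of the membrane arm, was highest at 413 ± 66.7 CPM per kilobase of exon (SD, n = 4 control mice), and Ndufb2, also of the membrane arm, was lowest at 30.7 ± 5.49. In complex II, Sdhd, a membrane anchor, was highest at 417 ± 30.4 and Sdhc, the other anchor, was lowest at 163 ± 18.2. The catalytic subunits Sdha and Sdhb lay between them on this scale. In complex III, Uqcrfs1, the Rieske iron-sulfur protein, was highest at 536 ± 55.7 and Uqcrq lowest at 152 ± 24.4. In complex IV, Cox6a2, the heart and muscle variant of subunit 6a, was highest at 617 ± 106. In complex V, Atp5a1, the alpha subunit of the catalytic head, was highest at 613 ± 93.6 and Atp5l, subunit g of the membrane part, was lowest at 17.3 ± 3.15.

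**Figure D1:**
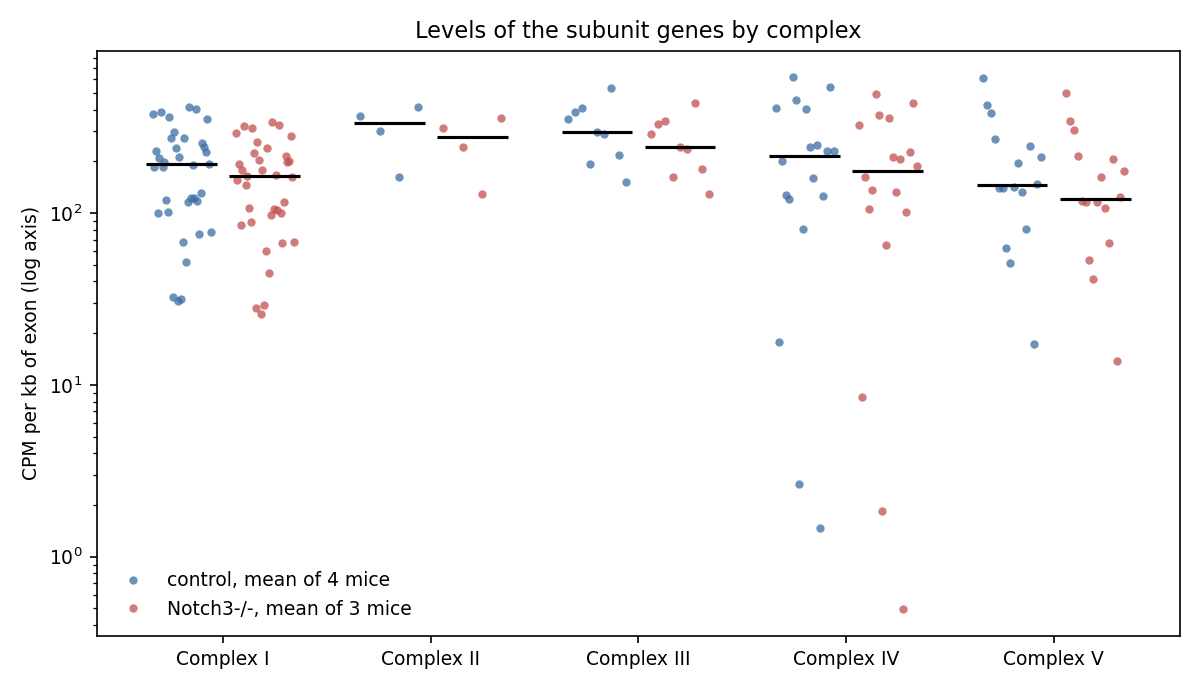
Mean level in the 4 control mice and in the Notch3-/- mice, in CPM per kilobase of exon on a log axis, for each member by complex (points), with medians (bars). In control mice complex II spans 163 to 417 and complex V spans 17.3 to 613. Cox8c, at 0 in complex IV, and Atp5s are not drawn.

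The order within complexes II to V in the plot of levels depended on the length used. Measured per kilobase of the principal transcript, a length chosen after the values had been seen, Atp5l stood at 205 CPM per kilobase, and the lowest of complex V was Atp5g1, a subunit c gene, at 65.1. The highest member was Atp5b, the beta subunit that holds the catalytic sites, at 939. In complex II, Sdhb at 590 and Sdha at 523 then lay above both anchors, Sdhd at 417 and Sdhc at 167. Uqcrc1, a core subunit, was the highest of complex III at 744, above Uqcrfs1, and Cox4i1, the common variant of subunit 4, was the highest of complex IV at 823. In complex I the ends stayed with Ndufb9 at 605 and Ndufb2 at 39.6, where the principal transcript of Ndufb2 in the annotation is itself 4371 bases long. The median member stood at 364.

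Promoters of the members are shown by 1 example and by counts, and their part in the levels was not tested. RefSeq windows of 300 bases around the annotated start, on GRCm38.p6, were present for 69 of the 85 members and for 27025 genes in all. Members without a window included Ndufa2, Ndufb9, Ndufs1, Sdhc, Cyc1, Uqcrb, Uqcrc2, Uqcrq, Cox4i1, Cox4i2, Cox6a2, Cox6c, Cox8c, Atp5a1 and Atp5mpl. Letters known from regulators of respiratory genes were searched on both strands: GCATGCGC for NRF1, CCGGAAG for ETS factors such as GABP, and GCCATNTT for YY1. A gene was counted when any of its windows held the letters. The NRF1 letters were found in 10 members (14.5%, against 3.05% of all genes with a window), the ETS letters in 16 (23.2%, against 9.93%) and the YY1 letters in 17 (24.6%, against 6.96%). Of the 17 members with YY1 letters, 12 belonged to complex I, which has 32 members with a window. At least 1 of the 3 motifs was found in 36 members (52.2%) and in 18% of all genes with a window. Atp5l, with the lowest fold change of complex V, is printed because its window held 3 matches, the most among the named members with a window, as did that of Cox6a1, which comes later by symbol. The Atp5l window lies at chr9:44920693-44920992 on the minus strand of GRCm38.p6, and capitals mark 1 NRF1 match and 2 ETS matches read on the reverse strand:

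Atp5l: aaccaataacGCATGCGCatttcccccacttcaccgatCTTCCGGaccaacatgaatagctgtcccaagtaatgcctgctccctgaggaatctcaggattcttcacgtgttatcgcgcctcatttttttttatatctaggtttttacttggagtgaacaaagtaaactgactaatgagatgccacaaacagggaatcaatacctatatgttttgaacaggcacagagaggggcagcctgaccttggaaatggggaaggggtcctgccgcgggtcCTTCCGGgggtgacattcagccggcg

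The NRF1 match begins 240 bases before the annotated start and the nearer ETS match 25 bases after it. These matches describe letters only.

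Across genotypes the members lay mostly lower in Notch3-/- hearts, by amounts close to the spread among control mice. Together they made up 3.69, 2.84, 3.09 and 3.17% of all counts in control mice 1 to 4, against 3.04, 2.22 and 2.63% in Notch3-/- mice 1 to 3, so that the means were 3.20 ± 0.356% (SD, n = 4) and 2.63 ± 0.410% (SD, n = 3). Notch3-/- mouse 1 lay within the control range, Notch3-/- mice 2 and 3 lay below it, and control mouse 1 was the highest of the 7. In bulk tissue, fewer cells of a type and less RNA per cell cannot be told apart. The log2 fold change was below 0 for 81 of 83 members (97.6%), against 7216 of 14324 tested genes (50.4%), and for 82 of 83 members without Notch3-/- mice 1 and 2. Its median over the members was -0.23, against -0.00 over all tested genes. With the depth of each library as a covariate in limma-voom, the median of the members was -0.03, with 56 of 82 below 0, and -0.02 relative to all genes. Without control mouse 1, the highest mouse, the median was -0.14, and without Notch3-/- mouse 1 it was -0.38. By complex, I to V, the medians without control mouse 1 were -0.11, -0.20, -0.13, -0.14 and -0.17, and those without Notch3-/- mouse 1 were -0.34, -0.37, -0.39, -0.41 and -0.42. Without Notch3-/- mouse 2 complex I stood at -0.12. The labels of control mice 1 and 2 start with X and those of the other 5 mice with k, so X labels occur in controls only. Among the mice with k labels the median was -0.19.

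No member passed the test. In edgeR, 0 of 83 members reached an adjusted p under 0.05 with a 1.5-fold change, a rule that 0.00698% of all tested genes met, Notch3 alone. DESeq2 and limma-voom on the 21 libraries also called 0 members, of 597 and 65 genes called in all. Without Notch3-/- mouse 3, edgeR called 936 genes and 0 members. At an unadjusted p under 0.05, 5 members were lower (Ndufa9, Ndufv1, Sdhc, Uqcrc2 and Cox4i2) and 0 were higher in edgeR, where 3.05% of all tested genes were lower and 7.34% were higher. The count of lower members at this unadjusted threshold was 6 in DESeq2 and 4 in limma-voom. It was 45 without Notch3-/- mouse 1, 17 without control mouse 2, 2 without control mouse 4 or Notch3-/- mouse 3, 1 without control mouse 1 or Notch3-/- mouse 2, and 7 without Notch3-/- mice 1 and 2. In 3 members (Ndufs1, Uqcrc2 and Cox4i2) all Notch3-/- mice lay below all control mice, which was so for 4.42% of all tested genes, and in 0 members did they all lie above, which was so for 4.16%.

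**Figure D2:**
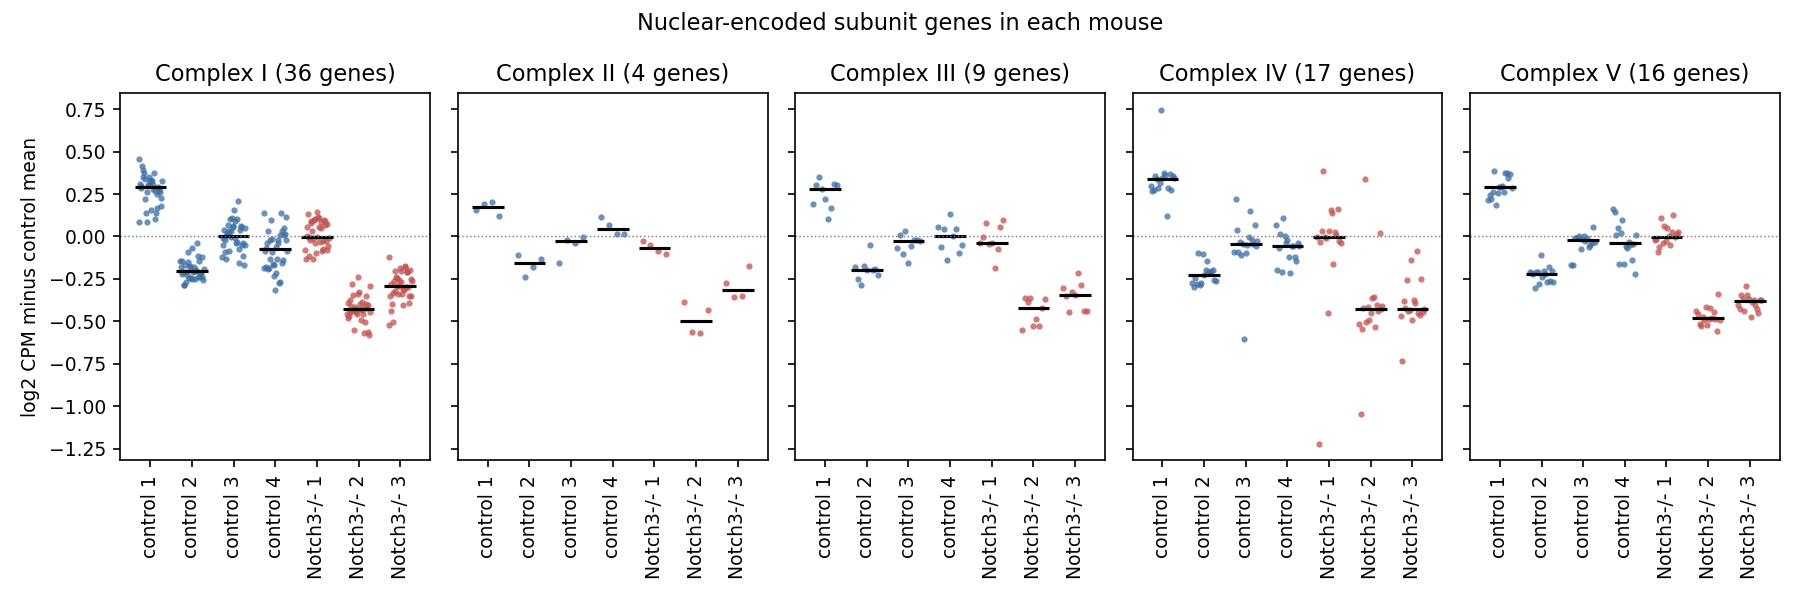
Log2 difference of each tested member from its control mean, by complex, with 1 position for each of the 7 mice; small points are members and bars are medians, control in 1 colour and Notch3-/- in another. Control mouse 1 sits high in all 5 complexes (0.17 in complex II to 0.34 in complex IV), and Notch3-/- mice 2 and 3 sit low in all 5 (-0.29 or lower).

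The 5 complexes followed much the same pattern of mice in the plot by mouse. Median log2 differences of complex I from the control mean were 0.29, -0.21, 0.00 and -0.07 in control mice 1 to 4, against -0.00, -0.43 and -0.29 in Notch3-/- mice 1 to 3. Complex II, with its 4 genes, gave 0.17, -0.16, -0.03 and 0.04 in the controls, against -0.07, -0.50 and -0.31 in Notch3-/- mice. In complex III the medians were 0.28, -0.20, -0.03 and 0.00 against -0.04, -0.42 and -0.34. Each of these had control mouse 2 at the bottom of the control range, below Notch3-/- mouse 1. Complex IV gave 0.34, -0.22, -0.04 and -0.05 in the controls, against -0.00, -0.43 and -0.42 in Notch3-/- mice. For complex V the medians were 0.29, -0.22, -0.02 and -0.04 against -0.00, -0.48 and -0.38. The groups overlapped in every complex through Notch3-/- mouse 1.

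Complex I takes electrons from NADH. Over its 36 genes the median log2 fold change was -0.21, all 36 below 0, from -0.34 for Ndufa1 to -0.08 for Ndufb4, and adjusted p-values from 0.479 to 0.915 in edgeR. The depth covariate moved the median to -0.01, with Ndufs8 at 0.07 and Ndufb4 at 0.04. Together they held 1.15 ± 0.122% of counts in the controls (SD, n = 4), against 0.957 ± 0.148% in Notch3-/- mice (SD, n = 3).

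Ndufv1 encodes the subunit that binds NADH and FMN. It was at 1053, 852, 825 and 1003 CPM in the controls, against 877, 621 and 727 CPM in Notch3-/- mice, a log2 fold change of -0.31 (SE 0.14, adjusted p = 0.479). Notch3-/- mouse 1 lay inside the control range and the other Notch3-/- mice below it. Ndufs1, the large iron-sulfur subunit of the same peripheral arm, was at 1056, 960, 934 and 991 CPM in the controls, against 928, 736 and 870 CPM in Notch3-/- mice (log2 fold change -0.20, SE 0.10, adjusted p = 0.530). Here the groups did not overlap, and Notch3-/- mouse 1 sat just under control mouse 3.

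Further core subunits were close to these values. The log2 fold change was -0.23 (SE 0.14) for Ndufv2, -0.28 (SE 0.16) for Ndufs7 and -0.15 (SE 0.15, but 0.04 under scaling to the sarcomere list, which moved the median of all genes to 0.19, and 0.02 in technical library 1 alone) for Ndufs8, all iron-sulfur proteins, and their adjusted p-values in edgeR were 0.597, 0.564 and 0.773. Ndufa1, a small accessory subunit encoded on the X chromosome, was at 212, 139, 142 and 135 CPM in the controls, against 146, 113 and 107 CPM in Notch3-/- mice (log2 fold change -0.34, SE 0.19, adjusted p = 0.577). Control mouse 1 was far above the other 6 mice. Ndufb4, an accessory subunit of the membrane arm, was at 74.9, 56.8, 62.0 and 47.8 CPM in the controls, against 66, 50.4 and 52.3 CPM in Notch3-/- mice, all 3 inside the control range. Its log2 fold change of -0.08 (SE 0.18) turned to 0.10 when libraries were scaled to the sarcomere list, to 0.17 in technical library 3 alone and to 0.04 without control mouse 1. Ndufa9, an accessory subunit named here only because it was 1 of the 5 at an unadjusted p under 0.05, had a log2 fold change of -0.28 (SE 0.12, adjusted p = 0.479).

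Complex II oxidizes succinate to fumarate and has no subunit from mitochondrial DNA. All 4 genes had a log2 fold change below 0, with a median of -0.25 (-0.05 with the depth covariate) and adjusted p-values from 0.479 to 0.589 in edgeR. Their share was 0.325 ± 0.0263% of counts in the controls (SD, n = 4), against 0.268 ± 0.0389% in Notch3-/- mice (SD, n = 3). Sdha, the flavoprotein, was at 1681, 1399, 1358 and 1635 CPM in the controls, against 1487, 1158 and 1249 CPM in Notch3-/- mice (log2 fold change -0.20, SE 0.12). Sdhb, the iron-sulfur subunit, was at 764, 569, 661 and 702 CPM in the controls, against 647, 453 and 523 CPM in Notch3-/- mice (log2 fold change -0.29, SE 0.14). For both genes, Notch3-/- mouse 1 lay inside the control range. For the anchors, the log2 fold change was -0.31 (SE 0.14) for Sdhc and -0.21 (SE 0.11, but 0.02 in technical library 1 alone) for Sdhd.

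Complex III passes electrons from ubiquinol to cytochrome c. Over its 9 genes the median log2 fold change was -0.24, within the narrow range of -0.28 for Uqcrc1 to -0.20 for Uqcrq, with adjusted p-values from 0.400 to 0.723 in edgeR. It was -0.03 with the depth covariate, where Uqcrq stood at 0.01. They held 0.468 ± 0.0467% of counts in the controls (SD, n = 4), against 0.381 ± 0.0598% in Notch3-/- mice (SD, n = 3). Uqcrc2 (chr7:120635176-120659524, GRCm38), a core subunit, was at 789, 712, 708 and 737 CPM in the controls, against 646, 525 and 635 CPM in Notch3-/- mice. The groups did not overlap, and the log2 fold change was -0.27 (SE 0.10, adjusted p = 0.400). Uqcrc1, the other core subunit, was at 1421, 1066, 1094 and 1337 CPM in the controls, against 1190, 846 and 961 CPM in Notch3-/- mice (log2 fold change -0.28, SE 0.14). Notch3-/- mouse 1 was inside the control range of Uqcrc1 and under that of Uqcrc2. Cyc1, cytochrome c1, and Uqcrfs1 had the same log2 fold change of -0.27, with SE 0.14 and 0.13.

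Complex IV hands the electrons to oxygen, and it held both the lowest and the highest fold change of the members. Of its 19 genes, 17 were tested, 15 were below 0, the median log2 fold change was -0.27 (-0.03 with the depth covariate), and adjusted p-values ran from 0.207 to 0.997 in edgeR. The share of counts was 0.419 ± 0.0617% in the controls (SD, n = 4), against 0.343 ± 0.0565% in Notch3-/- mice (SD, n = 3).

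Cox4i2 (chr2:152754173-152765037, GRCm38) encodes the variant of subunit 4 that is known for its rise in low oxygen and for its expression in vessel-associated cells. It had 51, 53, 69 and 36 counts in the controls, against 21, 32 and 43 counts in Notch3-/- mice, or 16.7, 11.1, 16.1 and 12 CPM against 5.64, 6.43 and 8.09 CPM. The CPM values of the groups did not overlap, the log2 fold change was -1.02 (SE 0.27), and the adjusted p was 0.207 in edgeR, above the threshold. Cox4i1, the common variant, was at 766, 515, 584 and 654 CPM in the controls, against 621, 435 and 450 CPM in Notch3-/- mice (log2 fold change -0.30, SE 0.17). Over 27 fits, the alternatives included, the log2 fold change of Cox4i2 lay between -1.55 and -0.49.

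Cox6a1, the variant of subunit 6a found in most tissues, went the other way. It was at 107, 79.0, 82.3 and 73.1 CPM in the controls, against 111, 107 and 70.5 CPM in Notch3-/- mice (log2 fold change 0.20, SE 0.20, adjusted p = 0.776). The higher Notch3-/- mice were 1 and 2, in which the hepatocyte list was high, and without them the log2 fold change was -0.27. Cox8a, the common variant of subunit 8, was at 171, 123, 148 and 128 CPM in the controls, against 158, 143 and 119 CPM in Notch3-/- mice (log2 fold change 0.00, SE 0.16, and -0.01 with RLE factors). Without Notch3-/- mice 1 and 2 it stood at -0.26. The part of liver RNA in these values was not tested.

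The variants typical of heart and muscle had fold changes below 0 in the reported fit, and 2 of them turned with the depth covariate. Cox6a2 was at 505, 341, 385 and 447 CPM in the controls, against 414, 293 and 306 CPM in Notch3-/- mice (log2 fold change -0.29, SE 0.17, but 0.01 with the depth covariate). For Cox8b, the muscle variant of subunit 8, the values were 245, 160, 184 and 187 CPM in the controls, against 188, 142 and 141 CPM in Notch3-/- mice (log2 fold change -0.28, SE 0.17). Both had Notch3-/- mouse 1 inside the control range and the other Notch3-/- mice below it. The log2 fold change was -0.16 (SE 0.18, but 0.01 under scaling to the sarcomere list and 0.07 both with the depth covariate and in technical library 3 alone) for Cox7a1, the heart and muscle variant of subunit 7a, and -0.18 (SE 0.18) for its partner Cox7a2. Cox5a and Cox5b, which have no such pairing, had -0.29 (SE 0.16) and -0.25 (SE 0.18, but 0.01 with the depth covariate), and Ndufa4 had -0.27 (SE 0.16).

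Within a mouse, the ratio of 2 variants of 1 subunit does not depend on the scaling of the library. It can still move with depth, for which the ratios printed here were not adjusted. The change in log2 CPM for each doubling of the library total was -0.03 for Cox4i2 and -0.88 for Cox4i1. It was -0.94 for Cox6a2 and -0.43 for Cox6a1, and -0.74 for Cox8b and -0.54 for Cox8a. The log2 ratio of Cox4i2 to Cox4i1 was -5.51, -5.52, -5.17 and -5.75 in the controls, against -6.75, -6.06 and -5.78 in Notch3-/- mice. The groups did not overlap, the difference was -0.71, and the exact permutation test gave p = 0.0286, the smallest that 35 splits allow, with an adjusted p of 0.0952 over the 5 pairs tested. Without Notch3-/- mice 1 and 2 the difference was -0.30, and without Notch3-/- mouse 1 it was -0.43. The log2 ratio of Cox6a2 to Cox6a1 was 2.24, 2.11, 2.22 and 2.61 in the controls, against 1.90, 1.46 and 2.11 in Notch3-/- mice, a difference of -0.47 (exact permutation p = 0.0571, adjusted p = 0.0952). Notch3-/- mouse 3 lay beside control mouse 2, and the difference was -0.18 without Notch3-/- mice 1 and 2 and -0.29 without Notch3-/- mouse 2. The log2 ratio of Cox8b to Cox8a was 0.52, 0.38, 0.32 and 0.55 in the controls, against 0.25, -0.01 and 0.25 in Notch3-/- mice, a difference of -0.28 (exact permutation p = 0.0571, adjusted p = 0.0952). Notch3-/- mouse 2, with high hepatocyte genes, lay furthest from the controls.

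**Figure D3:**
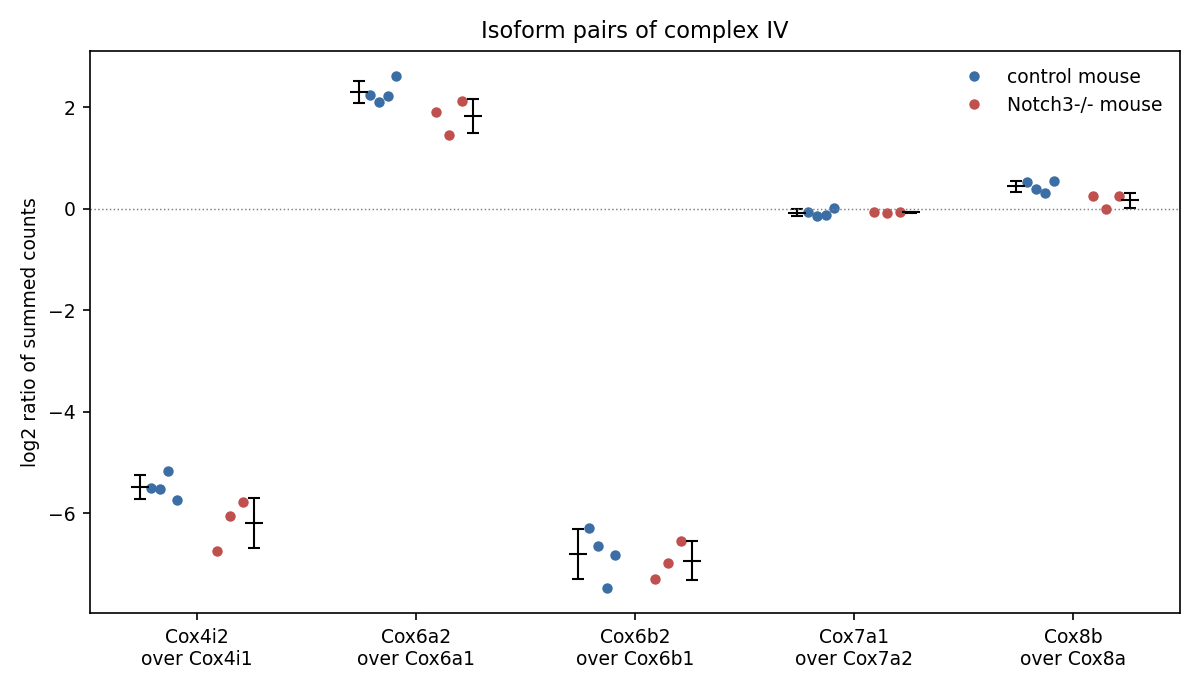
Log2 ratio of summed counts of the 2 variants of a subunit of complex IV in each mouse (points) with the mean and SD of each group, control (n = 4) and Notch3-/- (n = 3), for each pair. The ratio of Cox4i2 to Cox4i1 lies at -5.75 or higher in control mice and at -5.78 or lower in Notch3-/- mice.

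The other pairs in the plot of ratios differed between groups by less than the spread among control mice. For Cox7a1 and Cox7a2 the log2 ratio averaged -0.08 ± 0.07 in the controls (SD, n = 4), against -0.07 ± 0.01 in Notch3-/- mice (SD, n = 3, exact permutation p = 0.943, adjusted p = 0.943). Cox6b2, a variant known from testis, and Cox6b1 averaged -6.81 ± 0.49 and -6.94 ± 0.38 on the same scale (exact permutation p = 0.714, adjusted p = 0.893). None of the 5 tests was below 0.05 after adjustment, and all were two-sided.

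Complex V makes ATP. Over its 16 genes the median log2 fold change was -0.26, all 16 below 0, from -0.31 for Atp5l to -0.21 for Atp5g1, and adjusted p-values from 0.490 to 0.730 in edgeR. With the depth covariate it was -0.03, and Atp5a1, Atp5b and Atp5g1 stood at 0.01, 0.00 and 0.05. Their share was 0.834 ± 0.105% of counts in the controls (SD, n = 4), against 0.676 ± 0.111% in Notch3-/- mice (SD, n = 3). Atp5a1 was at 2213, 1644, 1693 and 2132 CPM in the controls, against 1873, 1405 and 1440 CPM in Notch3-/- mice (log2 fold change -0.26, SE 0.15). Atp5b was at 2112, 1533, 1586 and 1969 CPM in the controls, against 1764, 1299 and 1324 CPM in Notch3-/- mice (log2 fold change -0.28, SE 0.15). In both, Notch3-/- mice 2 and 3 lay below every control mouse and Notch3-/- mouse 1 did not.

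The central stalk and the membrane ring were close to the catalytic head. The log2 fold change was -0.29 (SE 0.13) for Atp5c1, -0.29 (SE 0.15) for Atp5d and -0.24 (SE 0.19) for Atp5e, the gamma, delta and epsilon subunits of the stalk. Atp5g1, Atp5g2 and Atp5g3 all encode subunit c of the ring, and had -0.21 (SE 0.16), -0.28 (SE 0.17) and -0.27 (SE 0.17). Atp5l, whose promoter is printed above, was at 140, 92.0, 108 and 107 CPM in the controls, against 110, 74.9 and 80.7 CPM in Notch3-/- mice (log2 fold change -0.31, SE 0.19, adjusted p = 0.597). Atp5s, outside the enzyme, was at 48.1, 62.0, 52.6 and 57.5 CPM in the controls, against 47.5, 43.0 and 64.5 CPM in Notch3-/- mice, a log2 fold change of -0.07 (SE 0.17), which turned to 0.12 under scaling to the sarcomere list.

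The share of the members also moved with the depth of the library, inside single mice. Control mouse 4 had members at 4.35% of counts in its library of 464390 and at 2.89% in its library of 1442650, where their counts were 20190 and 41728. Notch3-/- mouse 1 had 4.09% in its library of 979804 and 2.39% in its library of 1775598, where their counts were 40039 and 42490. From the smallest to the largest library, the total was 3.11 times as large in control mouse 4 and the counts of the members 2.07 times, against 1.81 and 1.06 times in Notch3-/- mouse 1. Control mouse 1, whose libraries spanned only 914165 to 1181948 counts, had 3.43% in the smallest and 3.73% in the largest.

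The slope on depth was tested within mice, over all genes, as the change in log2 CPM for each doubling of the library total. Of 82 members tested, 69 fell with depth at an adjusted p under 0.05 in edgeR and 0 rose, where 339 of 13019 genes (2.6%) fell and 38 (0.292%) rose. The median slope of the members was -0.64, against -0.01 over all genes. By complex the members that fell were 30 of 36 in complex I (median slope -0.60), 4 of 4 in complex II (-0.58), 8 of 9 in complex III (-0.69), 12 of 16 in complex IV (-0.70) and 15 of 16 in complex V (-0.71). Uqcrb in complex III and Atp5g2 in complex V were the exceptions in their complexes. The median slope was -0.59 in control mouse 2, -0.96 in control mouse 3, -0.51 in control mouse 4, and -1.13, -1.21 and -0.69 in Notch3-/- mice 1 to 3. In control mouse 1 it was 0.91, with 19 of 82 members below 0. Slopes within a mouse rest on its span of depth. The span was least in control mouse 1 and Notch3-/- mouse 2, whose largest libraries were 1.29 and 1.21 times their smallest. In fits on 1 genotype, 46 members fell in control mice alone and 56 in Notch3-/- mice alone. With no composition factors 204 genes fell and 331 rose, and of the members 54 fell and 0 rose. The median of all genes moved to 0.17, and relative to it the members stood at -0.63.

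**Figure D4:**
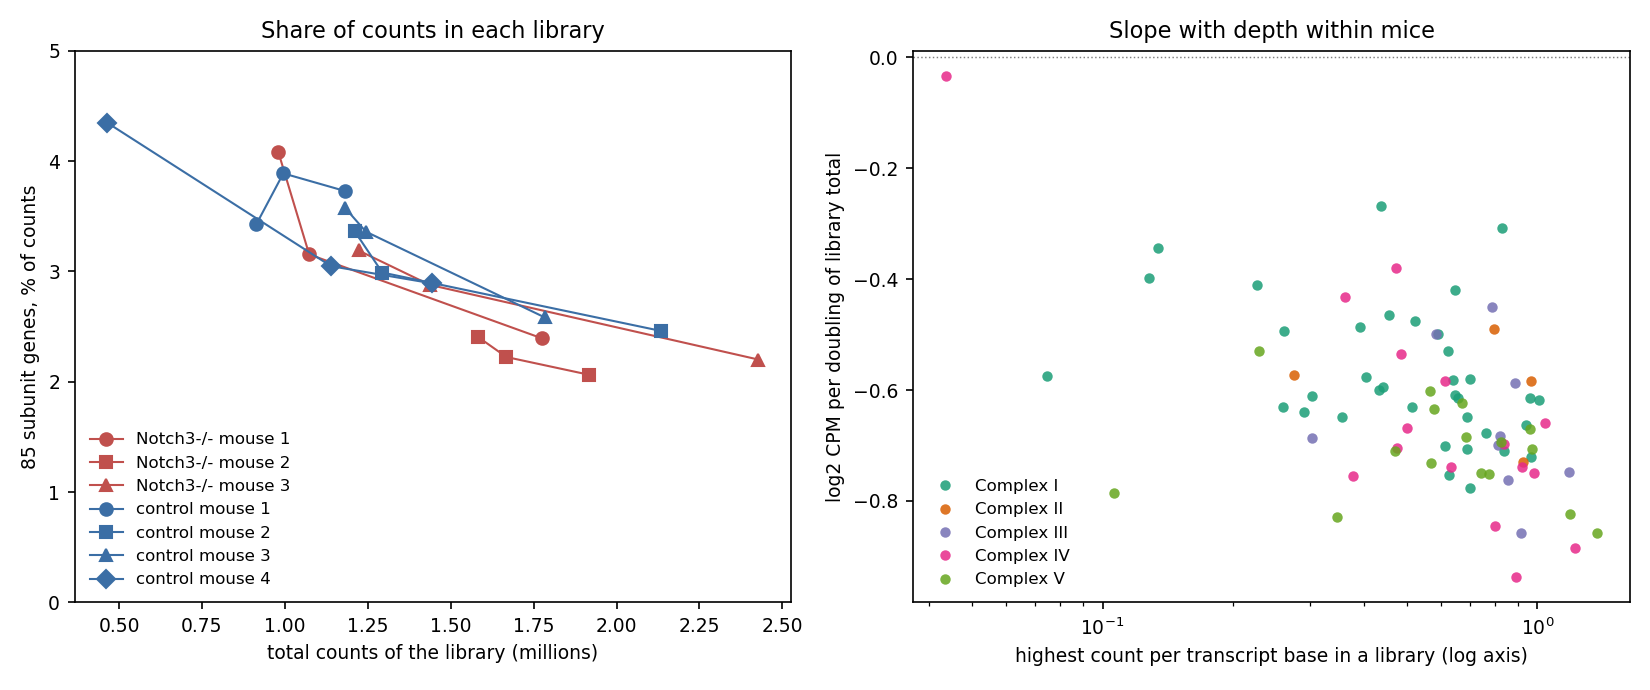
Share of counts held by the members in each of the 21 libraries against the total of the library, with lines joining the 3 libraries of a mouse. The slope on depth of each member by complex is drawn against its highest count per transcript base, without Atp5s. From the smallest to the largest library the share falls in every mouse except control mouse 1, and the slopes drawn lie between -0.94 for Cox6a2 and -0.03 for Cox4i2.

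Slopes differed among the members, most of which are shown in the plot of depth. The steepest were Cox6a2 (-0.94, SE 0.09, adjusted p = 1.28e-09), Cox4i1 (-0.88, SE 0.08) and Atp5b (-0.86, SE 0.05). Near 0 were Cox4i2 (-0.03, SE 0.33, adjusted p = 0.982) and Atp5s (0.02, SE 0.17, adjusted p = 0.981), both among the less abundant members. Ndufs1 (-0.31, SE 0.06) and Uqcrc2 (-0.45, SE 0.08), whose groups did not overlap between genotypes, were shallower than the medians of their complexes. Over the 82 members, the level per base of the principal transcript had r = -0.57 with the slope and 0.11 with the log2 fold change. The slope and the fold change had r = 0.00. This r includes Cox4i2, at a slope of -0.03 (SE 0.33) and a log2 fold change of -1.02, the lowest of the members. The r without Cox4i2 was not computed, so a relation among the other members was not tested. These correlations are across genes that share their libraries and are not independent replicates.

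Slopes below 0 were also frequent among other genes with high coverage. Coverage was taken as the largest count per base of the principal transcript in any library. At 0.3 counts per base or more, the median slope was -0.29 for 821 genes of any kind (738 below 0) and -0.67 for the 70 members among them. Between 0.1 and 0.3 it was -0.05 for 2364 genes and -0.51 for 10 members. In the genotype comparison, the 794 genes at 0.3 or more stood at a median log2 fold change of -0.16, and the 70 members had -0.24. The most covered member was Atp5b at 1.37 counts per base, and across all libraries the highest value for a gene of 200 or more exon bases was 1.97 counts for each exon base. After a correction for counts that level off at high coverage, the median slope of the members was -0.62 by all exons and -0.59 by the principal transcript, and 66 and 61 of 82 members fell. How repeated reads were treated is not given in the sources used here, and the cause of the slopes was not tested.

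The median library was deeper in Notch3-/- mice (1583662 counts) than in control mice (1196276). With the log2 library total as a covariate in limma-voom, the median log2 fold change of the members was -0.03, with 56 of 82 below 0 and 0 called. Among the members named above, Ndufs8, Uqcrq, Cox5b, Cox6a2, Cox6b1, Cox7a1, Ndufb4, Atp5a1, Atp5b and Atp5g1 then stood just above 0, at up to 0.07. With 1 library for each mouse, that nearest the median depth, the median was -0.17. These libraries were not of equal depth, with 1583662 counts in Notch3-/- mouse 2 and 1073361 to 1244170 in the other mice. With counts thinned to the smallest mouse total the median was -0.24. Random thinning of summed counts keeps the expected share of each gene, so it cannot show how shares depend on library depth. Scaling to the sarcomere list moved the median of all genes to 0.19 and that of the members to -0.05, so the members lay at -0.24 relative to all genes, and 68 of 83 were below 0. A change of scaling shifts all genes of a mouse together, so the distance to all genes could change little.

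**Figure D5:**
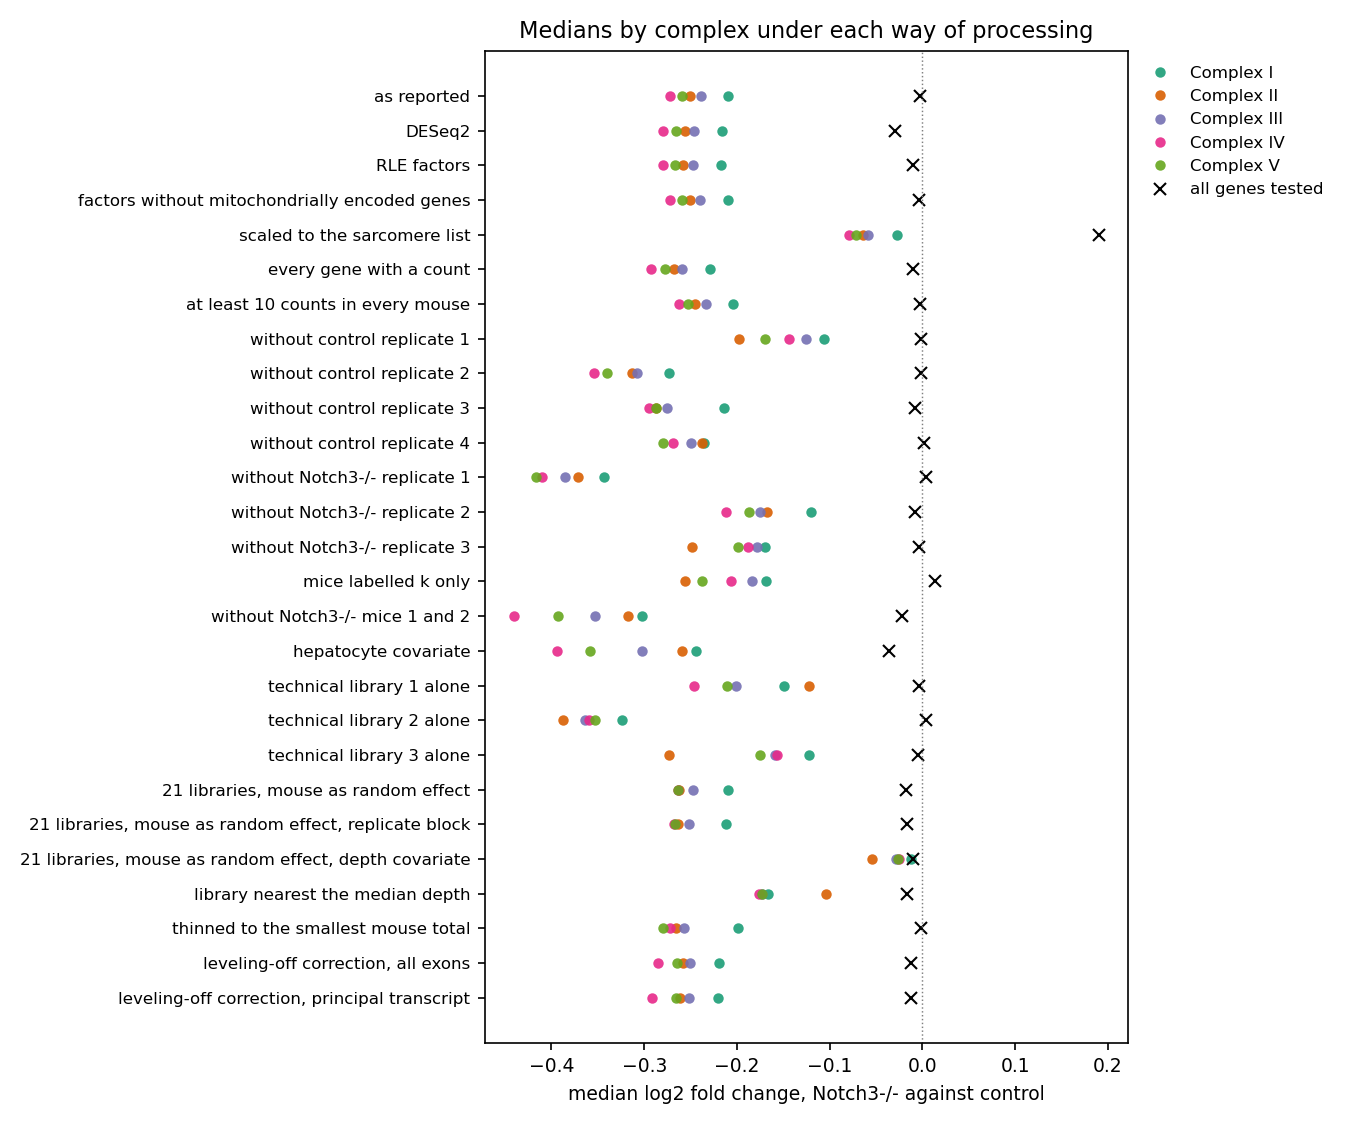
Median log2 fold change (Notch3-/- over control) of each complex and of all tested genes under the reported fit and each alternative, with 0 marked. Over all members together, the median ran from -0.38 without Notch3-/- mouse 1 to -0.03 with the depth covariate.

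The plot of alternatives shows the median of each complex below 0 in each fit drawn. The distance of the members to all genes was smallest with the depth covariate (-0.02) and largest without Notch3-/- mouse 1 (-0.38). Without Notch3-/- mice 1 and 2 the median of the members was -0.36.

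The 13 subunits encoded in mitochondrial DNA were close to their nuclear partners. Summed, they were at 10124, 6859, 7899 and 9677 CPM in the controls, against 8118, 6216 and 6237 CPM in Notch3-/- mice. Of 12 tested, 12 had a log2 fold change below 0, with a median of -0.31. With the depth covariate the median over 9 of them was 0.02. At an unadjusted p under 0.05, mt-Nd3 and mt-Nd6 were lower, and 0 were called in edgeR. For mt-Nd3 the values were 28.8, 23.3, 3.27 and 4.98 CPM in the controls, against 6.17, 2.81 and 3.20 CPM in Notch3-/- mice, so control mice 1 and 2 were high and the other controls overlapped the Notch3-/- mice. The summed level of Notch3-/- mouse 1 lay inside the control range. For depth, 9 of 10 tested genes fell, with a median slope of -0.94. The most abundant per kilobase was mt-Nd1, a core subunit of complex I, at 1572, 1058, 1216 and 1510 CPM in the controls, against 1287, 980 and 963 CPM in Notch3-/- mice.

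In the reported fit, genes that build the complexes lay nearer to 0 than the subunits. The median log2 fold change was -0.03 for 15 assembly genes of complex I, -0.05 for 4 of complex II, -0.11 for 6 of complex III, -0.08 for 21 of complex IV and -0.14 for 6 of complex V, and turned to 0.17, 0.14, 0.08, 0.13 and 0.05 under scaling to the sarcomere list, which raised all genes. Relative to all genes under that scaling they stood at -0.02, -0.05, -0.11, -0.06 and -0.14. With the depth covariate the assembly medians were -0.072, -0.050, -0.034, -0.091 and -0.083 for complexes I to V. The subunits then stood at -0.013, -0.055, -0.029, -0.025 and -0.027, so only the assembly genes of complex II lay nearer to 0. The assembly median of complex I was 0.08 without Notch3-/- mouse 2 and 0.16 without Notch3-/- mice 1 and 2. Without Notch3-/- mouse 3 it was -0.17, where the subunits of complex I also stood at -0.17. That of complex II was 0.05 without control mouse 3. In the 5 lists 0 genes were called in edgeR on all mice, and 1 was at an unadjusted p under 0.05, Sco2, a copper chaperone of complex IV, named after its value was seen. Sco2 was at 42.9, 45.9, 52.2 and 54.1 CPM in the controls, against 73.5, 112 and 46.6 CPM in Notch3-/- mice (log2 fold change 0.70, SE 0.26, adjusted p = 0.402), and it was called without Notch3-/- mouse 3. The Notch3-/- mice with high hepatocyte genes were again the higher ones. None of the assembly genes passed the depth test in edgeR.

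Genes that feed the chain and export its product were described as well. The 7 genes that move ADP, phosphate and energy-rich phosphate stood at a median log2 fold change of -0.28, with 0 called in edgeR. Their median was -0.09 with the depth covariate, -0.12 with the library nearest the median depth and -0.39 without Notch3-/- mouse 1. At an unadjusted p under 0.05, 4 were lower, where 3.05% of all tested genes were lower. They were Slc25a3, which carries phosphate, and the outer-membrane channels Vdac1, Vdac2 and Vdac3. For Vdac1, Vdac2 and Vdac3 all Notch3-/- mice lay below all control mice, which was so for 4.42% of all tested genes. Ckmt2, the mitochondrial creatine kinase of muscle, was the most abundant per kilobase, at 1405, 1047, 1148 and 1376 CPM in the controls, against 1190, 873 and 994 CPM in Notch3-/- mice (log2 fold change -0.26, SE 0.14). For depth, 5 of the 7 fell. The 14 tested genes of electron carriers and their synthesis had a median of -0.21 with 0 called. This median was -0.11 with the depth covariate and -0.06 without Notch3-/- mice 1 and 2. In technical libraries 1 and 2 alone it was -0.03 and -0.30. At an unadjusted p under 0.05 only Etfa was lower, and Etfa, Etfb, Etfdh and Coq9 fell with depth. Etfb, part of the flavoprotein that carries electrons from fat oxidation, was the most abundant of them per kilobase (log2 fold change -0.23, SE 0.16).

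The 16 regulators of mitochondrial biogenesis stood at a median of 0.03 on the log2 scale, and 0 were called or at an unadjusted p under 0.05 in edgeR. Their median was -0.10 without Notch3-/- mouse 3, -0.01 without control mouse 3 and 0.09 without Notch3-/- mouse 1. The 16 genes summed to 1801, 1801, 1801 and 1855 CPM in the controls, against 1790, 1568 and 1873 CPM in Notch3-/- mice. Perm1, a regulator in muscle, was the most abundant per kilobase (log2 fold change -0.10, SE 0.11, but 0.09 under scaling to the sarcomere list, which raised all genes). For the genes of the factors whose letters were searched, the log2 fold change was 0.04 (SE 0.21) for Nrf1, 0.01 (SE 0.15) for Gabpa and -0.25 (SE 0.25) for Yy1. None of the 16 passed the depth test.

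Marker lists of the cells in the heart were described in the same way, and 0 of their genes were called in the reported edgeR fit. DESeq2 called Myh11 of smooth muscle, Col1a1 and Col3a1 of fibroblasts and Stard10 of the atrial list. On all mice, edgeR called Myh11 and Col3a1 under scaling to the sarcomere list. With every gene that had a count, it called Myh11, Col3a1 and Stard10. Limma-voom on the 21 libraries called Myh11 and Col3a1. The sarcomere list, in which Actc1 was the most abundant per kilobase, stood at a median of -0.25 (0.01 with the depth covariate), 2 of 20 genes (Myom2 and Tcap) lower at an unadjusted p under 0.05 and 18 of 20 that fell with depth (median slope -0.79). Vascular smooth muscle genes had a median of -0.24 over 6 tested, led by Des (-0.26), which the sarcomere list also holds. Their median was -0.08 with the depth covariate and -0.73 without Notch3-/- mouse 1 (7 genes). Smtn was at -0.22, while Acta2 at 0.15 and Mylk at 0.24 lay above 0. The median was 0.04 over 10 endothelial genes, led by Eng, 0.07 over 10 fibroblast genes, led by Gsn, and 0.15 over 10 macrophage genes, led by Lyz2. The endothelial median was -0.06 without control mouse 2 and 0.16 without control mouse 4. Without Notch3-/- mouse 3 the fibroblast and macrophage medians were -0.05 and 0.01, and among the mice with k labels the fibroblast median was 0.32. The median was -0.14 over 5 atrial genes, or -0.14 relative to all genes and -0.12 relative to them under scaling to the sarcomere list. The atrial median itself was 0.07 under that scaling and 0.11 without control mouse 2. It was 0.16 without control mouse 4 (4 genes) and -0.41 without Notch3-/- mouse 2 (6 genes). The median was -0.48 over 5 erythroid genes, led by Hbb-bs, and -0.27 over 2 adipocyte genes, led by Cidea. At an unadjusted p under 0.05, Myh11 and Tagln of smooth muscle and Hba-a1 and Hbb-bs of erythroid cells were lower, as was Dcn of fibroblasts. Col1a1, Col1a2, Col3a1 and Postn of fibroblasts, Mrc1 of macrophages and Stard10 of the atrial list were higher. The higher values of Stard10 were in Notch3-/- mice 1 and 2, in which the hepatocyte list was high, and Notch3-/- mouse 3 lay below every control mouse. For Postn the highest value was 112 CPM in Notch3-/- mouse 2, while Notch3-/- mouse 3 at 44.9 CPM lay inside the control range of 39.3 to 51.8 CPM, and for Col1a2 Notch3-/- mouse 1 at 148 CPM lay below control mouse 1 at 160 CPM. The fibroblast and macrophage lists did not move as a whole. Gsn (-0.23), Tcf21 (-0.25) and Dpt (-0.10) of fibroblasts stood below 0, as did Cd163 (-0.27), C1qc (-0.17) and Cd68 (-0.02) of macrophages. The genes with an unadjusted p under 0.05, and those named from the other lists by the same threshold, were chosen after their values were seen. Myh11, the myosin of smooth muscle, was at 39.6, 20.3, 10.5 and 19.6 CPM in the controls, against 3.22, 4.82 and 3.57 CPM in Notch3-/- mice (log2 fold change -2.49, SE 0.45, adjusted p = 0.118). The part of any of these cells in the values of the members was not tested.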

How the data were processed

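The deposited table holds counts for 46517 genes and 92 spike-in rows in 21 libraries; per the labels the authors' processing used CASAVA and the mm10 genome. Aligner, counting program, strand use and treatment of duplicates are not given in the sources used here. Counts of the 3 technical libraries of a mouse were summed. Genes passed edgeR's filter on low counts (14324 tested), were scaled by TMM and tested with the quasi-likelihood F-test of edgeR 4.0.16 (R 4.3.3), with Benjamini-Hochberg adjustment over all tested genes. A call was an adjusted p under 0.05 with a 1.5-fold change. The depth slope came from edgeR on the 21 libraries with a term for each mouse. Ratios of variants, with a pseudocount, were compared by two-sided exact permutation tests. Alternatives used DESeq2 1.42.0, limma 3.58.1 with voom, other factors, filters, mice, libraries and a correction for counts that level off at high coverage. Exon lengths came from the mouse annotation, which lacks 512 genes. Scripts ran in Python 3.11.15 and were tested on simulated data.

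Named genes were the core subunits, the paired variants, and in each complex the members with the lowest and highest fold change and level; the rule names 42 members. Members and lists were chosen with earlier results of these data known. The rule left out 8 assembly factors, Ndufa4l2 and 11 pseudogenes. No pseudogene had more than 6 counts. Symbols and identifiers are those of Ensembl, for example ENSMUSG00000009876 for Cox4i2, ENSMUSG00000030884 for Uqcrc2 and ENSMUSG00000038717 for Atp5l.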

Additional observations from a re-analysis of the deposited data

Results flagged for a closer look

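In each group of 4 control mice, the gap between the highest or lowest mouse and its nearest neighbour was divided by the range of the group and compared with Dixon's 95% critical value. Of 70 such groups examined, 3 passed it, where chance passes about 1 in 20. Ndufa1, an accessory subunit of complex I, was at 212 CPM in control mouse 1, and at 135 to 142 CPM in the other control mice. The summed level of the 4 complex II assembly genes was 272 CPM in control mouse 3, and 224 to 226 CPM in the others. The summed level of the 16 regulators of mitochondrial biogenesis was 1855 CPM in control mouse 4, and 1801 CPM in each of the others. These are given as values only.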

How the results depend on the processing

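In 0 of the alternatives was a member called, and the median log2 fold change of the members was below 0 in each, from -0.38 to -0.03. The median depth slope ran from -0.88 (Notch3-/- mice only) to -0.47 (no composition factors), with 46 (control mice only) to 76 members that fell. For the 41 named members with a fit, 1025 of 1057 alternative values kept their direction. Fits without Notch3-/- mice 1 and 2, and the correction and levels by principal transcript, were chosen after seeing the data. Without Notch3-/- mice 1 and 2, 1 Notch3-/- mouse remains and is assumed to vary like the controls. Depth limits the scarce members: Cox6b2 and Cox7b2 held few counts, and Cox6b2 did not pass the filter in fits on single libraries. The technical numbers do not pair libraries across mice. Correlations of library profiles after removal of mouse means had a median of -0.01 for the same number (-0.23 to 0.15, 3 of 63 over 0.1) and ranged from -0.26 to 0.29 for different numbers (15 of 126 over 0.1).

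Where values moved, the cause was not tested. The count of members lower at an unadjusted p under 0.05, 5 in the reported fit, was 1 with sarcomere scaling, 15 with every gene that had a count, 3 with at least 10 counts in every mouse, 1 with the mice whose labels start with k (control mice 3 and 4 and all Notch3-/- mice), 0 with the hepatocyte covariate, and 0, 24 and 0 with technical library 1, 2 or 3 alone. It was 3 with the replicate block, 1 with the depth covariate, 0 with the library nearest the median depth, and 1 to 45 when each mouse was left out. All genes called, 1 in the reported fit, were 597 in DESeq2, 108 with sarcomere scaling, 639 with every gene, 0 with the k mice, 0 with the hepatocyte covariate, 48, 39 and 77 with single technical libraries, 65 over 21 libraries, 62 with the replicate block, 11 with the depth covariate, 80 with the library nearest the median depth, and 1 to 936 when each mouse was left out. Sarcomere scaling, which moved the median of all genes to 0.19, moved the median log2 fold change of complexes I to V to -0.027, -0.064, -0.059, -0.079 and -0.072. With the depth covariate they moved to -0.013, -0.055, -0.029, -0.025 and -0.027. The library nearest the median depth gave -0.10 for complex II and -0.18 for complex IV. Technical library 1 alone gave -0.12 for complex II, library 2 gave -0.32, -0.39 and -0.36 for complexes I to III, and library 3 gave -0.12, -0.16 and -0.16 for complexes I, III and IV and -0.15 for all members. Without Notch3-/- mice 1 and 2, complexes IV and V were at -0.44 and -0.39.

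Directions of log2 fold changes turned as follows. With the depth covariate, the value was 0.0052 for Atp5a1, 0.0044 for Atp5b, 0.053 for Atp5g1, 0.0071 for Cox5b, 0.011 for Cox6a2, 0.0023 for Cox6b1, 0.073 for Cox7a1, 0.043 for Ndufb4, 0.067 for Ndufs8 and 0.010 for Uqcrq. Sarcomere scaling gave 0.015 for Cox7a1, 0.10 for Ndufb4 and 0.037 for Ndufs8. Technical library 1 alone gave 0.022 for Ndufs8 and 0.018 for Sdhd, library 2 gave -0.079 for Cox6a1 and -0.016 for Cox8a, and library 3 gave 0.074 for Cox7a1 and 0.17 for Ndufb4. Ndufb4 was at 0.051 with the k mice and from -0.20 to 0.039 when each mouse was left out. Cox6a1 was at -0.27 without Notch3-/- mice 1 and 2 and at -0.37 with the hepatocyte covariate. The log2 fold change of Cox8a was -0.0045 in DESeq2, -0.0051 with RLE factors, -0.017 with every gene, -0.26 without Notch3-/- mice 1 and 2, -0.27 with the hepatocyte covariate, and -0.087 to 0.11 when each mouse was left out. The difference in the log2 ratio of Cox6b2 to Cox6b1 was 0.21 with the k mice, 0.27 without Notch3-/- mice 1 and 2, and -0.35 to 0.054 when each mouse was left out. For Cox7a1 to Cox7a2 it was -0.012 with the k mice and -0.0076 to 0.042 when each mouse was left out.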

Other observations

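Several members share exon bases with a neighbouring gene, and the strand used in counting is not given in the sources used here. Of the 85 members, 29 share at least 1 annotated exon base with another gene, and for 17 of them the other gene holds more than 0.1 of the counts of the member. The longest shared stretch lies between Ndufb5, an accessory subunit of complex I, and Mrpl47, a mitochondrial ribosomal protein on the opposite strand, with 616 bases and 9270 and 3633 counts over all libraries. Atp5j, a coupling subunit of complex V, shares 397 bases with Gabpa on the opposite strand, with 10764 and 3374 counts. Ndufb6 shares 257 bases with Smim27, or 39.0% of its exon bases, with 4843 and 2000 counts. These genes were named after their values were seen.

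The mitochondrially encoded subunits of complex IV were counted very unevenly. Over all 21 libraries mt-Co1 held 27338 counts, mt-Co3 held 69 and mt-Co2 held 17. In complex I, mt-Nd5 held 53288 counts and mt-Nd4l held 80. The spike-in transcripts held 34 counts in all, or 0.000117% of the table.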
